A study of Mus musculus with 8 samples.

Results

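The regions described here are stretches of open chromatin at the starts of protein-coding genes that were found in control liver and not in Alb-D2KO liver. A lost region was counted when it overlapped the 200 bp on either side of an annotated transcript start of a protein-coding gene, and when no other gene on the opposite strand began within 1000 bp of the region and ran away from that start. Such promoters are called one-directional, because they have no annotated partner transcribed the other way. Of 8031 lost regions, 1195 met this rule (14.9%, 95% Wilson interval 14.1 to 15.7). They lay at starts of 1151 genes, of which 58 had 2 or more lost regions at their starts. A further 143 lost regions were at coding promoters with an outward partner gene, called divergent, 222 were at starts of noncoding genes only, and 6471 were at no start.

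ATAC-seq reports open chromatin by letting a transposase cut and tag DNA that is not covered by nucleosomes. Adult liver nuclei of C57BL/6 mice (C57BL/6J in the methods of the study) from 4 control and 4 Alb-D2KO libraries were used, with 50000 nuclei per library. Alb-D2KO mice carry floxed alleles of Dio2, the gene of the deiodinase that converts thyroxine to the active thyroid hormone T3, and express Cre recombinase from the albumin promoter, which is active in hepatocytes; the titles of the control libraries carry the word cre, and their genotype label is control. The methods say that libraries were grouped for calling, and the separate numbering of the lists was read here as 1 call per genotype. On that reading the AUC of a lost region comes from the control libraries together, has no replicate error, and no animal can be left out. The tests below are therefore over regions or genes, which are not animals, and their p-values say nothing about the spread between mice. The lists hold no read counts, so library depth is unknown, and intervals cover counting error only. Fewer hepatocyte nuclei and less open chromatin per nucleus cannot be told apart in such a list. No lost region lay within 5 kb of Dio2 itself (chromosome 12, 90724552 to 90738438), and the nearest was 930102 bp away.

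A promoter is the DNA around a transcription start where general transcription factors and RNA polymerase II assemble. Mammalian promoters fall broadly into those within CpG islands, which are rich in G and C, are bound by SP and KLF proteins and serve many housekeeping and regulatory genes, and those poor in CpG, which often serve genes of one tissue and may carry a TATA box. In the liver, genes for plasma proteins and metabolic enzymes typically belong to the second kind.

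The sequence around the start is shown for 10 lost regions, to set promoters of both kinds side by side. Rdm1, Cped1, Slc38a3, Soat2 and Inhbc had the highest signal of those that could be shown, and the others are the leading members of gene groups described below. Each line runs 5′ to 3′ on the strand of the gene, from 150 bases before the start to base 30 of the transcript, and capitals mark exact matches to any of the 16 short motifs spelled out further on.
Rdm1: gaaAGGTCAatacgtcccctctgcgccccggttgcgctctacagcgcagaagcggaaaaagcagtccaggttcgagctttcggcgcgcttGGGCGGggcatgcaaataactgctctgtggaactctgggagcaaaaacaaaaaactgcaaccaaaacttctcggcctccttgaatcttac
Cped1: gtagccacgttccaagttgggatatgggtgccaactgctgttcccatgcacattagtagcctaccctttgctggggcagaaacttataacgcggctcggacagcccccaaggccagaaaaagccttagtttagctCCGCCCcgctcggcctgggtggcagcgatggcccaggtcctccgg
Slc38a3: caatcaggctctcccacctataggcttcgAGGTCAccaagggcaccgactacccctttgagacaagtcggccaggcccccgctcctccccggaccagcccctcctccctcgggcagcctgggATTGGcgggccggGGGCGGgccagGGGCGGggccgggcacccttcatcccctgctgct
Soat2: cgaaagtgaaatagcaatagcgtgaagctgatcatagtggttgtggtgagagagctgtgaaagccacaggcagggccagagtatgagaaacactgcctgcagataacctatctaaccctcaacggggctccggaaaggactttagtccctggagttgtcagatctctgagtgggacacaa
Inhbc: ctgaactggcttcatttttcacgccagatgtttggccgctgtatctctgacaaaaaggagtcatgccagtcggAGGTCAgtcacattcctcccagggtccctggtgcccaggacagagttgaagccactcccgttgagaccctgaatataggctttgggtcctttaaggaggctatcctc
Igfbp4: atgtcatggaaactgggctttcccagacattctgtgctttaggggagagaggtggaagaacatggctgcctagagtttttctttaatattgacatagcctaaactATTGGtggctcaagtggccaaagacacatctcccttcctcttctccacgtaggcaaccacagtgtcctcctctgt
Arid1b: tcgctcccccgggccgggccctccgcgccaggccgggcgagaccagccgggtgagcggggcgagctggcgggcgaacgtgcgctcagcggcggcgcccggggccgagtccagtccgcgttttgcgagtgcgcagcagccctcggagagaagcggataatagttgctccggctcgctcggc
G6pc: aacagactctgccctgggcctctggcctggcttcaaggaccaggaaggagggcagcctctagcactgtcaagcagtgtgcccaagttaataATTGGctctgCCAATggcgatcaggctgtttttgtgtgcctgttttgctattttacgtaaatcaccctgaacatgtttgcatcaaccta
Nr1h4: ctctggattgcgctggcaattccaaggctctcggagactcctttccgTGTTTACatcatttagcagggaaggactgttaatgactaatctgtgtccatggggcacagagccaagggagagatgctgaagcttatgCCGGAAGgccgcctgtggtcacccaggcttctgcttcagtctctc
Dusp1: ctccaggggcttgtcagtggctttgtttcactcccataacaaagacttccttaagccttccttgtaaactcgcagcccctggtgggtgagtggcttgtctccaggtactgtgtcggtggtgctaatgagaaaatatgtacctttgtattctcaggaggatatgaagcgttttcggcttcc

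These windows are on the mm10 build at chr11:101627045-101627224 for Rdm1, chr6:21985766-21985945 for Cped1, chr9:107667397-107667576 for Slc38a3, chr15:102150376-102150555 for Soat2, chr10:127370402-127370581 for Inhbc and chr11:99044616-99044795 for Igfbp4. The others are chr17:4994182-4994361 for Arid1b, chr11:101367411-101367590 for G6pc, chr10:89533556-89533735 for Nr1h4 and chr17:26507694-26507873 for Dusp1. Slc38a3, Inhbc, Nr1h4 and Dusp1 are on the minus strand. The starts shown for Igfbp4 and Dusp1 were neither the first nor the principal start of the gene. The lost region at Igfbp4 ended 61 bp before the start shown, so it covered only part of the printed sequence. The printed sequence of Arid1b was 75.6% G and C and held 28 CpG dinucleotides, whereas that of Igfbp4 was 47.2% and held 1, and that of G6pc held 2. In Slc38a3, GC boxes began 15 and 4 bases before the start. Inhbc, Rdm1 and Slc38a3 each held the nuclear receptor site AGGTCA, and Nr1h4 held the FOXA letters.

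The lost regions sat close to the start, slightly on its upstream side. The summit, the base of highest signal, was at a median of -23 bp from the nearest coding start (quartiles -94 and 26, range -734 to 854). It lay within 50 bp of the start in 473 regions (39.6%), within 100 bp in 704 (58.9%) and within 200 bp in 937 (78.4%). Upstream summits numbered 750 (62.8%) and downstream summits 437 (36.6%). The start itself was covered by 956 of the regions (80.0%, 77.6 to 82.2). At the median a region reached 197 bp upstream and 161 bp downstream of the start.

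**Figure D1:**
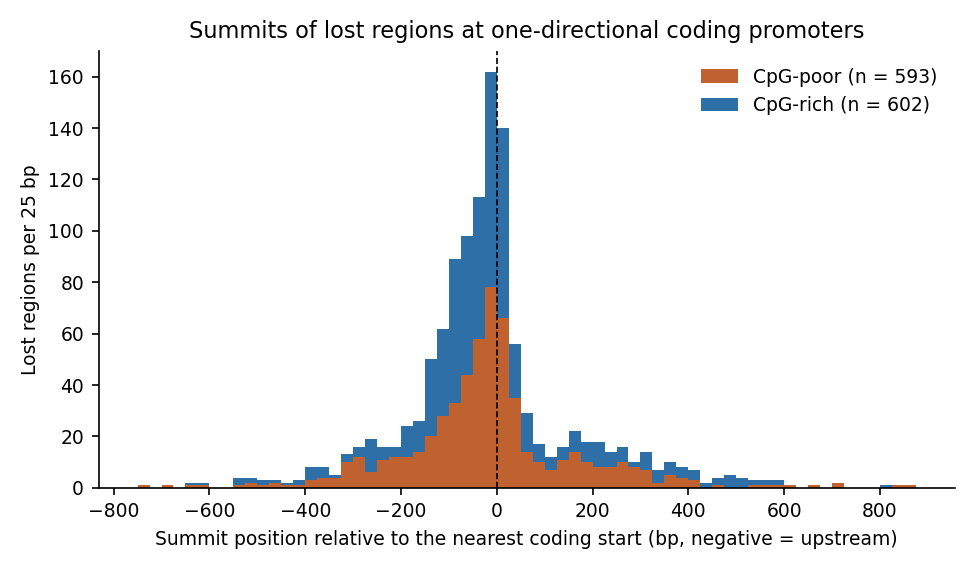
Histogram of the distance from the nearest coding start to the summit of each of the 1195 lost regions, in bins of 25 bp on the x axis, with the number of regions on the y axis and CpG-poor (593) and CpG-rich (602) promoters stacked. Both kinds peaked just upstream of the start, with medians of -19 and -26 bp.

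By the annotation of the gene at the nearest start, 386 summits (32.3%) lay outside the gene, 347 (29.0%) in an intron, 329 (27.5%) in an untranslated part of an exon, 77 (6.44%) in coding sequence and 56 (4.69%) in another exon. Most genes had several annotated starts, and 1094 of the regions were at genes with more than 1. Of those 1094, 596 (54.5%, 51.5 to 57.4) were at the first start of the gene. In 394 of all 1195 regions (33.0%) the first start lay over 1000 bp from the one that was lost. The principal start, that of the transcript of the main protein isoform, was hit by 794 (66.4%, 63.7 to 69.1). Klf15, a glucocorticoid-induced regulator of fasting metabolism, is an example of internal starts, with lost regions of AUC 502, 472 and 399 at 3 starts, none of them the first. Hlf, a PAR bZIP transcription factor, had 4 lost regions, of AUC 386, 321, 247 and 228, and the one of AUC 321 was at its first start.

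Strength was read from the AUC, the area that the −log10 p values of the pooled libraries enclose over a region, as the peak caller wrote it. It describes the region in control liver and not the signal left in Alb-D2KO liver. The median AUC of the 1195 regions was 305 (quartiles 246 and 398, range 200.2 to 1338), the median width 392 bp (160 to 2191) and the median −log10 q at the summit 3.17. Every region of the list had an AUC of at least 200, and 141 members (11.8%) were under 220 and 577 (48.3%) under 300. Much of the set was therefore near the lowest AUC that the list holds. Away from starts, the median lost region had an AUC of 272 and was 308 bp wide, with 61.7% of AUCs under 300. AUC rose with width among the members (Spearman's rho 0.57 over 1195 regions, which share one pooled call).

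The regions of highest AUC were at Midn, a nuclear protein that carries proteins to the proteasome, and Rdm1, a RAD52-like RNA-binding protein. The region at Midn (chromosome 10, 80150441 to 80152631) had an AUC of 1338 and was the widest of the 1195 at 2191 bp, with its summit 652 bp inside the gene in an intron and 4 other lost regions within 5 kb of the gene. That at Rdm1 (chromosome 11, 101626850 to 101628239) had an AUC of 1243, with its summit 72 bp before the first start. They were followed by Cped1 (1043), the glutamine transporter gene Slc38a3 (986), Soat2 (925), which esterifies cholesterol in hepatocytes, and Angptl4 (899), an inhibitor of lipoprotein lipase. The next were the activin subunit gene Inhbc (869), the phosphodiesterase gene Pde4b (848), Zfp428 (801) and the transglutaminase gene Tgm1 (795). These 10 values lay between 795 and 1338, against an upper quartile of 398 for the whole set. At the other end, Srrm3, Zc3h13 and Slc25a25 had AUCs of 200.3, 200.2 and 200.2, each with the region covering the start.

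**Figure D2:**
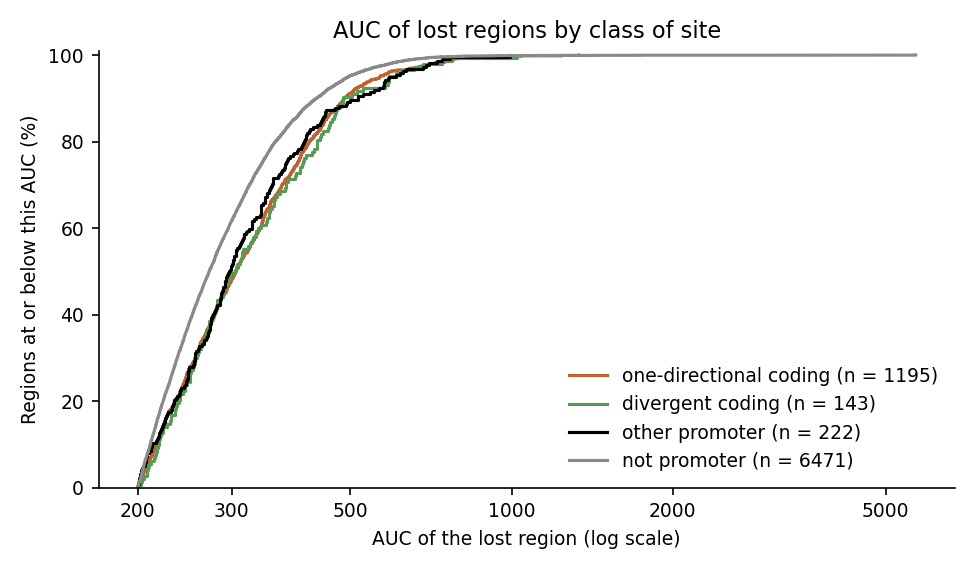
Cumulative share of lost regions (y axis, %) at or below each AUC (x axis, log scale) for one-directional coding promoters (n = 1195), divergent coding promoters (143), other promoters (222) and sites away from starts (6471). The promoter curves run close together, with medians of 305, 304 and 297, and the curve of sites away from starts lies to the left, with a median of 272.

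To ask whether the absence of a partner gene went with another frequency of loss, or with another AUC, one-directional promoters were set beside divergent ones. The AUC is the signal of the control call and does not give how much of it was lost. Genes whose starts were all one-directional held a lost region at a start in 1036 of 17889 cases (5.79%), and genes with a divergent start in 267 of 4139 (6.45%). The second count takes in lost regions at any start of such a gene, also at a one-directional one. It therefore compares kinds of gene and not single promoters. The odds ratio was 0.891 (95% interval 0.775 to 1.03, Fisher's exact test, two-sided, p = 0.108). It fell below 1 past the threshold when a 500 bp promoter window was used (0.837, exact p = 0.00501) or partners up to 2000 bp away counted (0.852, exact p = 0.0196), and was above 1 when only protein-coding partners counted (1.05, exact p = 0.619). The median AUC was 305 at one-directional and 304 at divergent promoters, a difference of 1.06 that the exact Mann-Whitney test did not separate from 0 (two-sided, p = 0.725). Median widths were 392 and 421 bp.

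The base composition of the 2 kinds of lost promoter differed. It was not measured over all divergent coding promoters, so whether the 2 kinds differ alike without loss was not tested. In the window from 250 bases before to 50 after the start, one-directional lost promoters had a median G and C content of 58.7% (quartiles 51.3 and 66.8), against 64.7% (55.7 and 73.2) for divergent lost promoters, a difference of -6.0 percentage points (exact Mann-Whitney test over 1195 and 143 regions, two-sided, p = 8.04e-08). A promoter was called CpG-poor when its observed to expected CpG ratio was under 0.6. By that limit 593 of 1195 one-directional (49.6%, 46.8 to 52.5) and 46 of 143 divergent lost promoters (32.2%, 25.1 to 40.2) were CpG-poor (odds ratio 2.08, 1.42 to 3.07, two-sided Fisher's exact p = 8.75e-05). Both differences kept their direction and their side of the threshold under all alternatives run.

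Set against all genes with a one-directional start, fewer of the genes with such a lost region were CpG-poor. Here 1 start was taken per gene, which need not be the start with the lost region. At the starts nearest the summits, 593 of 1195 lost regions (49.6%) were CpG-poor. Of the 1151 genes with such a lost region, 511 (44.4%) were CpG-poor, against 62.1% of 20801 genes with sequence. Counted the other way, 8.12% of CpG-rich genes with a one-directional start and 3.96% of CpG-poor ones held such a lost region, also at a start other than the 1 taken. Over all 20884 such genes, with those lacking sequence included, the share was 5.51%. A promoter that was closed in control liver could not enter the list, and the part this has in the difference between the shares was not tested. The TATA box letters, beginning between 40 and 20 bases before the start, were present in 21 of the 1151 genes (1.82%) and 2.58% of all, and the median gene length was 28345 bp against 17950 bp.

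**Figure D3:**
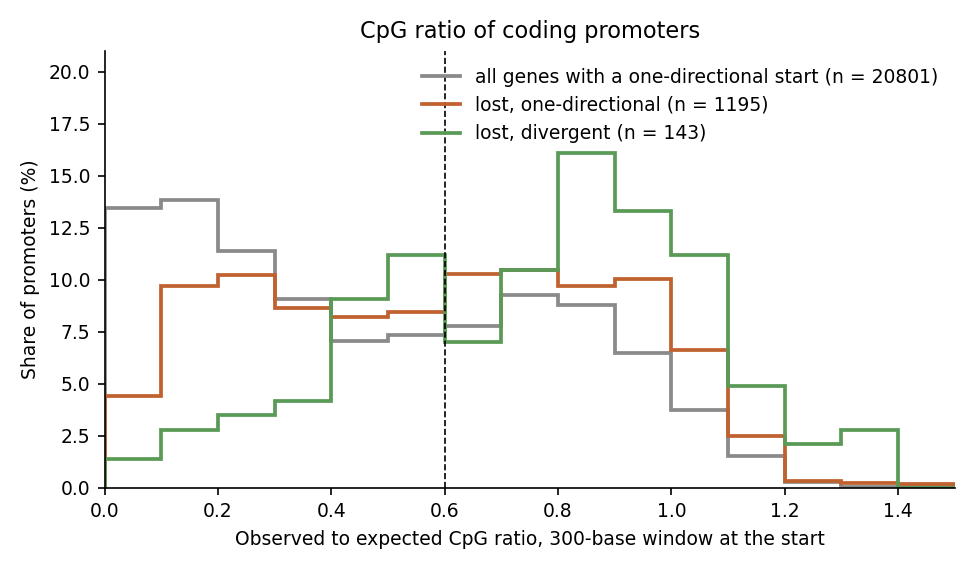
Share of promoters (y axis, %) by observed to expected CpG ratio in bins of 0.1 (x axis) for 1195 one-directional lost regions, 143 divergent lost regions and 20801 genes with a one-directional start. Windows were at the start nearest the summit for lost regions and at 1 start per gene for all genes. Values over 1.5 are in the last bin, and the dashed line marks the limit of 0.6. Ratios under 0.2 were held by 4.44% and 9.71% of the one-directional lost regions in the first 2 bins, against 13.5% and 13.8% of all genes.

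Among the 1195 members, CpG-poor and CpG-rich promoters had similar median strength and different shares at the first start. The median AUC was 311 for 593 CpG-poor and 299 for 602 CpG-rich regions, and AUC followed the CpG ratio hardly at all (Spearman's rho -0.05 over 1195 regions). CpG-poor regions were at the first start of their gene in 49.9% (45.9 to 53.9) and CpG-rich regions in 66.6% (62.7 to 70.3). Another lost region was present within 5 kb of the gene for 51.4% (47.4 to 55.4) of the CpG-poor and 40.4% (36.5 to 44.3) of the CpG-rich regions. The start was covered in 78.9% and 81.1%. These shares are descriptions, and the differences between them were not tested.

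Lost neighbours were about as frequent at the members as over the whole list. The peak caller numbered the regions of control liver along the genome, so the list shows whether the next region on either side is also in it. A region next to it by number was lost for 731 of the 1195 (61.2%, 58.4 to 63.9), with 1 such neighbour in 487 and both in 244. Numbers in the list ran up to 22367, and 8031 of the numbered regions were lost, so a lost neighbour is frequent anywhere. Whether the 61.2% is above what scattered losses would give was not tested. The share was 83 of 143 (58.0%) at divergent promoters (odds ratio 1.14, 0.786 to 1.64, Fisher's exact test, two-sided, p = 0.470), 65.1% away from starts and 64.4% over all 8031 lost regions. The lost neighbour lay a median of 11258 bp away, 135 of them within 1 kb and 147 over 50 kb. At 548 regions (45.9%) at least 1 other lost region lay within 5 kb of the gene, and at 149 (12.5%) it was 3 or more. The highest number was 12, at Nfib, a nuclear factor I gene, whose promoter region itself had an AUC of 203. Over all genes with a one-directional start, 21.2% had any lost region within 5 kb. That share is per gene and counts a region at the start itself. The 45.9% is per region and leaves the member out, so the 2 shares are not alike.

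Exact matches to 16 motifs were counted in the 300-base window on both strands. The letters were GGGCGG for the GC box of SP and KLF proteins, CCAAT for the box bound by NFY, CCGGAAG for ETS proteins, GCGCATGC for the factor NRF1, TGACGTCA for the cyclic AMP element (CRE), AAGATGGCG for the factor YY1 and CACGTG for the E-box of USF and CLOCK. For core elements and liver factors they were TATAAA for the box bound by TBP, TTGCGCAA for the palindrome of C/EBP proteins, CAAAGTCCA for the hepatocyte factor HNF4A, TGTTTAC for FOXA proteins and AGGTCA for the recognition site of a single nuclear receptor. The others were ACTACAA for ZNF143, AGGGGGCGC for the core of the CTCF site, TTCCCGCC for E2F proteins and TTATGTAA for the D-box of PAR bZIP proteins. No motif holds another whole, but matches may overlap at their ends. A match says only that the letters are present.

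The GC box was the 1 motif whose share differed between one-directional and divergent lost promoters after Benjamini-Hochberg adjustment over 16 motifs. It was present in 603 of 1195 (50.5%) and in 95 of 143 (66.4%), with an odds ratio of 0.515 (two-sided Fisher's exact test, adjusted p = 0.00588). No motif passed under 5 of 14 alternatives, among them a window centred on the summit and q under 0.001. Among the members, 75.9% of the CpG-rich and 24.6% of the CpG-poor promoters held the GC box. The 2 kinds of promoter were not compared within a CpG class, and the GC box was not counted over all divergent promoters. The CCAAT box was present in 360 members (30.1%), 23.1% of divergent lost promoters and 37.4% of all genes with a one-directional start. Within CpG-rich promoters it stood at 22.4% of the members against 35.8% of all genes, and within CpG-poor ones at 37.9% against 38.3%. The TATA box letters anywhere in the window were in 8.12% of the members, 4.20% of divergent lost promoters and 14.1% of all genes.

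The letters AGGTCA, which thyroid hormone receptors and other nuclear receptors bind, was in 190 members (15.9%), 16.8% of divergent lost promoters and 15.4% of all genes with a one-directional start. Among CpG-poor promoters it was in 23.1% of the members and 19% of all genes. The FOXA letters were in 43 members (3.60%, against 3.07% of all), and the HNF4A letters in 11 of 1195 members (0.921%), against 104 of 20801 genes, or 1.35% of CpG-poor members against 0.658% of CpG-poor genes. The CTCF core was in 35 members (2.93%), 6.29% of divergent lost promoters and 1.43% of all genes. The other 9 motifs were in 0.0837% to 9.62% of the members, the highest being the ETS letters. None but the GC box differed between one-directional and divergent lost promoters after adjustment (exact tests, adjusted p from 0.194 upwards).

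Named groups of liver genes ranged from no member to 40.5% of their genes. The shares below are those of genes with a one-directional start that held a lost region there, to be read beside 5.51% for all such genes. A region at any annotated start was counted, which need not be the first or the principal start of the gene. A gene has to be open at its start in control liver to be counted, the groups were chosen with earlier results of these data known, and none was tested as a set. The groups with the highest shares were plasma and acute phase proteins (15 of 37, 40.5%, 26.3 to 56.5), drug metabolism (11 of 35, 31.4%, 18.6 to 48.0), amino acid and urea metabolism (10 of 32, 31.2%, 18 to 48.6), hepatocyte transcription factors (9 of 29, 31.0%, 17.3 to 49.2) and glucose production (8 of 28, 28.6%, 15.3 to 47.1).

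**Figure D4:**
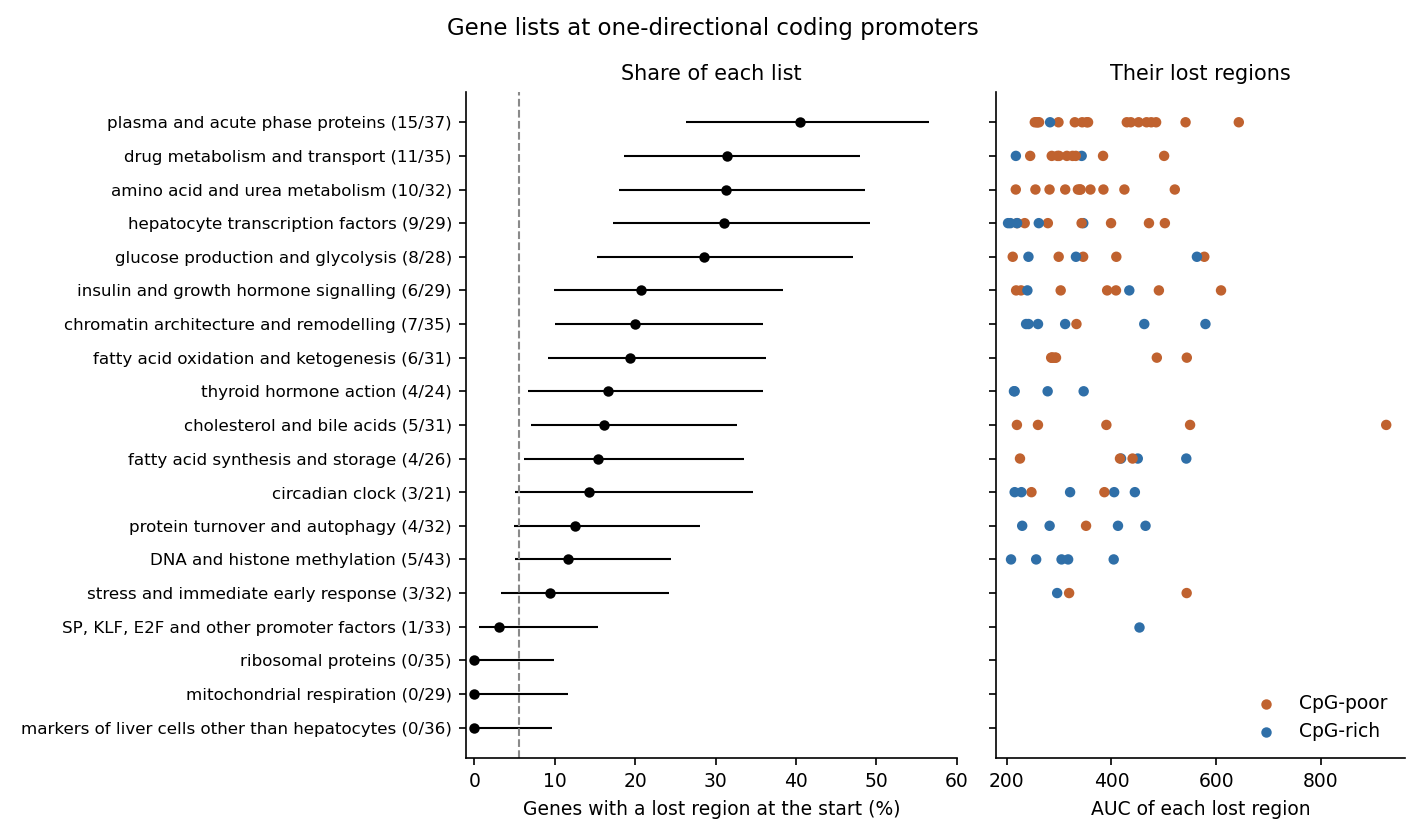
Left, share of each list's genes with a one-directional start that held a lost region there (x axis, %), with 95% Wilson intervals, the number of genes in brackets and a dashed line at the 5.51% of all such genes. Right, AUC of each lost region of the list, coloured by CpG class. The intervals of the upper lists lie above the dashed line, and 3 lists had no gene with a lost region.

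Genes of secreted plasma proteins lost openness at CpG-poor starts in 17 of 18 regions, and all 37 genes of the group had CpG-poor promoters. The highest AUC was at Apoc3 (643), an apolipoprotein that slows the clearance of triglyceride-rich particles, with the summit 74 bp before its start. It was followed by the fetuin gene Ahsg, with 2 regions of AUC 542 and 437, Apoa2 (485), a protein of high-density lipoprotein, the complement gene C4b (476), haptoglobin Hp (467) and the antiplasmin gene Serpinf2, with 2 regions of AUC 452 and 344. Any lost region within 5 kb was found at 28 of the 37 genes (75.7%).

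Genes of drug metabolism and transport had 9 of 11 lost regions at CpG-poor starts, and 31 of the 35 genes of the list were CpG-poor. Por, which passes electrons to all microsomal cytochrome P450 enzymes, had the highest AUC of the group (501). The conjugate exporter gene Abcc3 (384), the aryl hydrocarbon receptor gene Ahr (343), the glutathione transferase genes Gsta3 (332) and Gstm1 (315) and the quinone reductase gene Nqo1 (326) followed. The regions at Por and Gstm1 lay at neither the first nor the principal start. Among amino acid enzymes, all 11 regions were CpG-poor, as were 24 of the 32 genes of the list. The homogentisate oxidase gene Hgd (521), the betaine methyltransferase gene Bhmt (425) and the tryptophan dioxygenase gene Tdo2 (385) led, before Hpd, an enzyme of tyrosine breakdown with 2 regions (359.9 and 336), and the cysteine dioxygenase gene Cdo1 (341).

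In glucose metabolism, the genes of enzymes that catalyse late steps of gluconeogenesis had a lost region at the start. G6pc, the glucose-6-phosphatase catalytic subunit (chromosome 11, 101367374 to 101367834), had an AUC of 577 with the summit 73 bp before its single start, and Fbp1, fructose-1,6-bisphosphatase, had an AUC of 409 with the summit 13 bp before the start. Glycerol kinase Gk (563) on the X chromosome and the bifunctional enzyme gene Pfkfb3 (332) had CpG-rich promoters. Creb3l3, a fasting-induced membrane-bound transcription factor, had an AUC of 346, at neither its first nor its principal start. Crtc3 and the glucose transporter gene Slc2a2 were at 242 and 212.

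Lipid enzymes were represented on both the synthetic and the oxidative side. Of genes of fatty acid synthesis and storage, 4 of 26 (15.4%, 6.15 to 33.5) had a lost region at a start. These were Acaca (543), the acetyl-CoA carboxylase that commits carbon to fatty acids, Mlxipl (450.3 and 418), the glucose-sensing factor ChREBP, and the desaturase genes Fads2 (440.3) and Scd1 (416 and 225). Of oxidation and ketogenesis genes it was 6 of 31 (19.4%, 9.19 to 36.3). All 7 of their regions were CpG-poor, as were 20 of the 31 genes of the list. Cpt1a, which admits fatty acids to mitochondria, had regions of AUC 487 and 294. Ppara, the nuclear receptor of the fasting response (292), Acot2 (287), Acaa1b (287) and Acaa1a (285) were close to each other. The regions at Acaca, Fads2, Ppara and Acaa1a lay at neither the first nor the principal start of the gene. The same held for the region of AUC 487 at Cpt1a. Of the cholesterol and bile acid group, 5 of 31 (16.1%, 7.09 to 32.6) were members. These were Soat2 (925), the bile acid receptor gene Nr1h4 (550.1), the hydroxylase genes Cyp7b1 (390) and Cyp8b1 (259.7) and the reductase gene Akr1d1 (219).

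Regulators of the hormonal response were among the members as well. Of thyroid hormone genes, 4 of 24 (16.7%, 6.68 to 35.9) had a lost region at a start, all 4 CpG-rich and none with a high AUC. Of the 24 genes, 12 were CpG-poor. They were Bcl3 (347), the thyroid hormone receptor gene Thra (278), malic enzyme Me1 (215) and the corepressor gene Ncor1 (214). Me1 is a textbook target of T3 in the liver. The regions at Thra and Ncor1 lay at a principal start that was not the first start. Of insulin and growth hormone genes, 6 of 29 (20.7%, 9.85 to 38.4) were members. Igfbp4, which binds insulin-like growth factors, had 3 regions (609, 303 and 218), Stat5b 491 and Stat5a 392, both transducers of growth hormone, Bcl6, a repressor that opposes STAT5, 434 and 227, the growth hormone receptor gene Ghr 409 and Akt1 239.5. All 3 regions at Igfbp4 and the weaker one at Bcl6 lay at neither the first nor the principal start. Of clock genes, 3 of 21 (14.3%, 4.98 to 34.6) were members, namely the output factors Dbp (445 and 215) and Hlf and the light- and glucocorticoid-induced Per1 (405).

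Hepatocyte transcription factors had a median AUC of 269.9 over 12 regions, against 305 over all members. Klf15 led, followed by Zhx2 (346), the silencer of fetal liver genes, Nr1i2 (343), the pregnane X receptor, Nfia (279), Onecut2 (261) and Esrra (234). Hnf4a, the central factor of hepatocyte identity, was at 219.8 and Nfib at 203, near the lowest AUC of the list. Nfia also shared a region of AUC 207 with the start of E130114P18Rik.

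Of chromatin architecture and remodelling genes, 7 of 35 were members (95% Wilson interval up to 35.9%) and 1 of their 7 regions was CpG-poor, as were 8 of the 35 genes of the list. Arid1b, a subunit of BAF remodelling complexes (chromosome 17, 4993564 to 4994453), had an AUC of 579, the cohesin release factor gene Pds5a 463, the remodellers Chd2 333, Chd4 312 and Chd7 242, the cohesin subunit gene Stag2 259.8 and Ctcf, the insulator protein, 237. Of DNA and histone methylation genes, 5 of 43 (11.6%, 5.07 to 24.5) were members, all with CpG-rich promoters, while 10 of the 43 genes of the list were CpG-poor. These were the demethylase gene Kdm3b (404) and the methyltransferase genes Setd1a (317), Suv39h1 (305), Kmt2d (256) and Ehmt1 (208). Of the list of SP, KLF, E2F and other promoter factors, which does not hold Klf15 (counted with the hepatocyte factors), Klf4 was a member (452), 1 of 33 genes (3.03%, 0.536 to 15.3).

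All of the remaining groups had Wilson intervals that include the 5.51% of all genes, and 3 of them had no member. The intervals of the clock, DNA and histone methylation and promoter factor groups above include it as well. Stress and immediate early genes had 3 of 32 (9.38%, 3.24 to 24.2), the phosphatase gene Dusp1 (544), Keap1 (319), which holds NRF2 in check, and the glutathione synthesis gene Gclc (296). The region at Dusp1 lay at neither its first nor its principal start. Protein turnover genes had 4 of 32 (12.5%, 4.97 to 28.1), the ubiquitin ligase genes Smurf2 (465 and 229.6), Nedd4l (352) and Smurf1 (282) and the lysosomal gene Lamp1 (412). Where no gene was counted, the limit given is 3 counts of the total rather than a Wilson bound. None of 35 ribosomal protein genes (which allows a share of up to 8.57%) and none of 29 genes of mitochondrial respiration (up to 10.3%) had a lost region at a one-directional start, although 7 and 6 of them had one within 5 kb. Of 36 markers of Kupffer, endothelial, stellate, bile duct and blood cells with a one-directional start, none was a member (up to 8.33%), and 4 had a lost region within 5 kb.

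Lost promoters were found on all of chromosomes 1 to 19 and X. The share of genes with a one-directional start that held a lost region there was highest on chromosome 15 (68 of 752, 9.04%, 7.20 to 11.3) and chromosome 11 (117 of 1531, 7.64%, 6.41 to 9.08), and lowest on chromosome 7 (69 of 1941, 3.55%, 2.82 to 4.47) and X (26 of 908, 2.86%, 1.96 to 4.16). On chromosome Y it was 0 of 182 (up to 1.65%).

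In the reverse direction, 48 of the 250 regions open only in Alb-D2KO liver met the same rule (19.2%, 14.8 to 24.5). Against 14.9% of the lost regions the odds ratio was 0.736 (0.531 to 1.04, Fisher's exact test, two-sided, p = 0.0714). It passed the threshold in 4 of 13 alternatives, with chromosomes 1 to 19 and X only among them (0.704, exact p = 0.0354). Their median AUC was 228, from a separate pooled call. Of the 1151 genes with a lost promoter region, 5 also had a region open only in Alb-D2KO liver within 5 kb (0.434%, 0.186 to 1.01). The share over all genes was not counted, so whether such regions are few at the members cannot be told. The 5 genes were Ank3, Arhgap22, Creb3l1, Ext2 and Snx29, which were named after their values were seen.

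At the limits of the rule, the regions just inside were at Rp9 and Dus2, 200 bp from the start with AUCs of 425 and 268, and at Ergic1, 199 bp away with 346. Those just outside lay 201 bp from the starts of Ppp5c, Asap2 and Ifit3b, with AUCs of 344, 250.1 and 207. Regions left out because a partner gene began just within 1000 bp were at Tmem205 (991 bp, AUC 281), the coactivator gene Ep300 (983 bp, 471) and Setd7 (980 bp, 310.4). Kept because the partner began just beyond it were Rdh10 (1035 bp, AUC 266), Hist1h4i (1042 bp, 291) and Zfp236 (1042 bp, 216).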

How the data were processed

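ATAC-seq libraries of 4 control and 4 Alb-D2KO livers were processed by the authors. Adapters were trimmed, reads were aligned to mm10 with BWA 0.7.17, chimeric, duplicate, supplementary and low-quality alignments were removed, and regions were called with Genrich 0.6 at a q-value threshold of 0.05 on grouped libraries, leaving out a blacklist. Regions overlapping one of the other genotype were then subtracted, so a peak that narrowly missed the threshold in Alb-D2KO liver counts as lost. The deposited signal (AUC of −log10 p) and the deposited −log10 q of the summit come from the pooled call. The deposited score was AUC per bp times 1000 within 1 unit for all 4849 lost regions below its ceiling, and was not used otherwise.

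Starts were those of GENCODE M21 and sequence that of GRCm38 from RefSeq. Shares were compared by Fisher's exact test and values by an exact Mann-Whitney test with tied ranks (SciPy 1.17.1, numba 0.67.0, Python 3.11.15), with Wilson intervals of 95%. Scripts were tested on simulated data. Genes with 1 start taken per gene used the principal start where one-directional. Gene groups held 19 lists. Named genes were the 10 members of highest and the 3 of lowest AUC, the 6 of highest AUC of each list, the regions nearest the limits of the rule, and Dio2. Crtc3, Slc2a2, Hnf4a, Nfib and Ctcf were added after their values were seen. Sequences with over 30 untranslated bases or on chromosome 18 were passed over. Members and lists were chosen with earlier results of these data known. Alternatives changed the promoter window, partner distance, kind of transcript or partner, overlap, smallest AUC, q or width, chromosomes and sequence window. Some genes that the naming rule picks are not reported here.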

Additional observations from a re-analysis of the deposited data

How the results depend on the processing

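Limits are those of pooled lists: replicates could not be left out in turn, depth is unknown, and how near a region came to the threshold in Alb-D2KO liver is not in the lists. No paired analysis was possible because each list is one call on the pooled libraries of a genotype. The number of members was most sensitive to the smallest AUC accepted, with 618 left at an AUC of at least 300, and was within 1.5 times of 1195 under the other 12 alternatives (up to 1499). Starts of the GENCODE basic set were added after seeing the data. The odds ratio of one-directional against divergent genes was 0.837 with a 500 bp window (exact p = 0.00501), 0.852 with partners within 2000 bp (exact p = 0.0196), 1.05 with protein-coding partners only (exact p = 0.619) and 1.09 with basic starts (exact p = 0.395). That of lost against Alb-D2KO-only regions passed the threshold with partners within 2000 bp (0.708, exact p = 0.0445), protein-coding partners (0.719, exact p = 0.0436), chromosomes 1 to 19 and X (0.704, exact p = 0.0354) and basic starts (0.669, exact p = 0.0262), and did not in the other 9. The difference in median AUC between one-directional and divergent promoters changed sign to -5.52 with a 100 bp window, -5.36 with an overlap of 100 bp, -11.9 with the midpoint, -14.1 at an AUC of at least 300 and -6.67 at q under 0.001, with exact p from 0.252 to 0.938 over 13 alternatives. The odds ratio for a lost neighbour was 0.822 with partners within 500 bp (exact p = 0.401). The GC box lost its call, leaving 0 of 16 motifs, with protein_coding transcripts only, the midpoint, q under 0.001, basic starts and a window centred on the summit. G and C content (-9.0 to -2.74 percentage points over 14 alternatives, exact p up to 0.000325) and the CpG-poor share (odds ratio 1.70 to 3.65 over 15, exact p up to 0.0202) kept direction and call. The causes of the changes were not tested.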

Other observations

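Outside the gene groups, several regulators and enzymes had lost regions at 2 or more of their starts. They were named here after their values were seen. Nr3c1, the glucocorticoid receptor gene, had regions of AUC 671 and 209, Alas1, the first enzyme of haem synthesis, 585 and 502, Plec, a cytoskeletal linker, 588 and 482, and Adcy9, an adenylyl cyclase gene, 568 and 408. Acox2, a peroxisomal oxidase gene of bile acid synthesis, had 3 regions with AUCs between 269.6 and 305, and Zc3h7a had 3 between 214 and 467.

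The X chromosome took unequal shares of the lists. Of the 48 regions open only in Alb-D2KO liver that lay at one-directional coding promoters, 12 were on X (95% Wilson interval 14.9 to 38.8%), among them Foxo4 (AUC 363), Haus7 (328), Taf1 (289.8), Tab3 (284) and Amer1 (269.7). Of the 1195 lost regions at such promoters, 25 were on X (2.09%, 1.42 to 3.07). Over the whole lists it was 15 of 250 Alb-D2KO-only regions and 40 of 8031 lost regions (0.498%). This was seen after the data were examined, and the difference was not tested.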
